A study of Mus musculus with 12 samples.

Results

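The genes that make, move and break down dopamine were followed with age in the ventral tegmental area (VTA) of the mouse midbrain, where dopaminergic neurons lie. There were 9 of them, namely Th, Ddc, Gch1, Pts, Qdpr, Slc18a2, Slc6a3, Maoa and Maob. They were taken by name, and every probe set that the array's annotation assigns to exactly 1 of these symbols was kept. This gave 14 probe sets of 45101 on the array and 9 genes of the 18193 with a probe set of their own. Ddc, Gch1, Pts, Qdpr and Maoa had 2 probe sets each and the other genes had 1. Tissue came from C57 mice (C57BL/6 in the study's methods) of wild type genotype at 2 months (young), 10 months (middle-aged) and 18 months (late middle-aged), with no other treatment or allele named in the labels. Each age had 4 arrays, and each array held RNA pooled from 5 mice. The whole region was dissected, so a level is a mean over neurons and glia of 5 animals, and fewer cells of a type cannot be told apart from less RNA per cell. Values are log2 expression, in which a difference of 1 is a doubling of signal, and they are compared between ages within a probe set and never between probe sets.

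Dopamine is made from tyrosine. Tyrosine hydroxylase (Th) adds a hydroxyl group in the rate-limiting step, and aromatic L-amino acid decarboxylase (Ddc) removes the carboxyl group. Tyrosine hydroxylase needs tetrahydrobiopterin, a cofactor that GTP cyclohydrolase (Gch1) and pyruvoyltetrahydropterin synthase (Pts) help to build and that dihydropteridine reductase (Qdpr) recycles after each use. The vesicular monoamine transporter (Slc18a2) loads dopamine into synaptic vesicles, the dopamine transporter (Slc6a3) takes it back up from the extracellular space, and the monoamine oxidases (Maoa and Maob) oxidise it. Th, Slc18a2 and Slc6a3 are marks of monoaminergic neurons in the midbrain, whereas Qdpr, Gch1, Pts and the oxidases are also used by other cells.

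The arrays differed in 4 ways that do not belong to these genes. Young arrays 3 and 4 were nearly the same (correlation 0.998, with 1 probe set more than 1 apart on the log2 scale, against 85 to 4905 in the 17 other pairs of one age). Their difference was below the noise seen in any other pair of one age, and they were counted as 1 sample, which left 3 young, 4 middle-aged and 4 late middle-aged samples. The mean log2 difference between the 3′ and 5′ control probe sets of Actb and Gapdh, which falls when label reaches further along a transcript, was 3.29 to 3.63 at 2 months, 1.69 to 2.44 at 10 months and 1.64 to 2.17 at 18 months, so that the young samples stood apart from both later ages. The mean of the 24 poly-A control probe sets, made for bacterial transcripts that can be added to RNA before labelling, was 5.94 to 6.14 at 2 months, 6.25 to 6.46 at 10 months and 6.60 to 7.36 at 18 months, with no overlap between any 2 ages, and its part in the results was not tested. The leading principal component, with 43.8% of the variance, put young array 2, 10-month array 3 and 18-month arrays 2 and 4 on its positive side and all other arrays on its negative side. Array medians lay between 6.12 and 6.21 and array maxima at or above 14.6. The precision is set by the number of arrays.

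The tissue label was set against markers of dopaminergic neurons outside the 9 genes. All 10 listed markers were measured, each read at its probe set of highest mean, and none lay below the lower quartile of all values. Their mean level per sample was 9.69 to 9.95 at 2 months, 9.79 to 10.04 at 10 months and 9.76 to 9.98 at 18 months, and these ranges overlapped. Within the list at 18 against 2 months, Chrna6, a nicotinic receptor subunit of dopaminergic neurons, rose by 0.68 ± 0.15 (SE, adjusted p = 0.0226), while Foxa2 and En1, transcription factors of midbrain dopaminergic neurons, fell by 0.61 ± 0.15 (adjusted p = 0.0290) and 0.54 ± 0.11 (adjusted p = 0.0162). The other 7 markers did not pass the test at that probe set, although 2 of the 6 probe sets of Nr4a2 were called lower and 1 of the 2 of Ret higher.

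At 18 against 2 months, 3 of the 14 probe sets rose and none fell. They were those of Th, of Maob and the 1423664_at probe set of Qdpr, and their changes were 1.80-fold, 1.92-fold and 2.11-fold. At 10 against 2 months the probe sets of Th and Maob rose and none fell. A probe set was called when its Benjamini-Hochberg adjusted p from limma, over all 45037 probe sets tested, was under 0.05 and its change exceeded 1.3-fold. Of all probe sets tested, 4.55% were called higher and 2.91% lower at 18 against 2 months (7.46% either way), and 0.837% were called higher and 0.524% lower at 10 against 2 months (1.36% either way). The 14 changes had a median of 0.22 at 18 against 2 months, against −0.06 over all probe sets tested, and a median of 0.11 at 10 against 2 months, against −0.01. An unadjusted p under 0.05 was reached by 7 of the 14 probe sets at 18 against 2 months, against 23.6% of all probe sets tested, and by 4 of the 14 at 10 against 2 months, against 15.6%. The shares were larger over the 22555 probe sets above the median value alone, 13 of the 14 among them. There 3247 were called at 18 against 2 months (3 of the 13) and 738 at 10 against 2 months (3 of the 13). An unadjusted p under 0.05 was reached there by 31.1% (7 of the 13) and 21.1% (3 of the 13). Both comparisons share the young samples. Since each array is a pool, the p-values reflect how pools varied and say nothing of single mice.

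Between 18 and 10 months none of the 14 probe sets was called by limma or had an unadjusted p under 0.05. Their adjusted p ran from 0.847 to 0.992 and their median change was 0.09. Over all probe sets 0.00222% were called in that comparison, and 2280 (5.06%) had an unadjusted p under 0.05. A contrast of the change between 2 and 10 months minus the change between 10 and 18 months called none of the 45037 probe sets. In it 2463 (5.47%) had an unadjusted p under 0.05. Th was the 1 member with an unadjusted p under 0.05 in this contrast, with a difference between the intervals of 0.83 ± 0.23 (SE, adjusted p = 0.898).

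**Figure D1:**
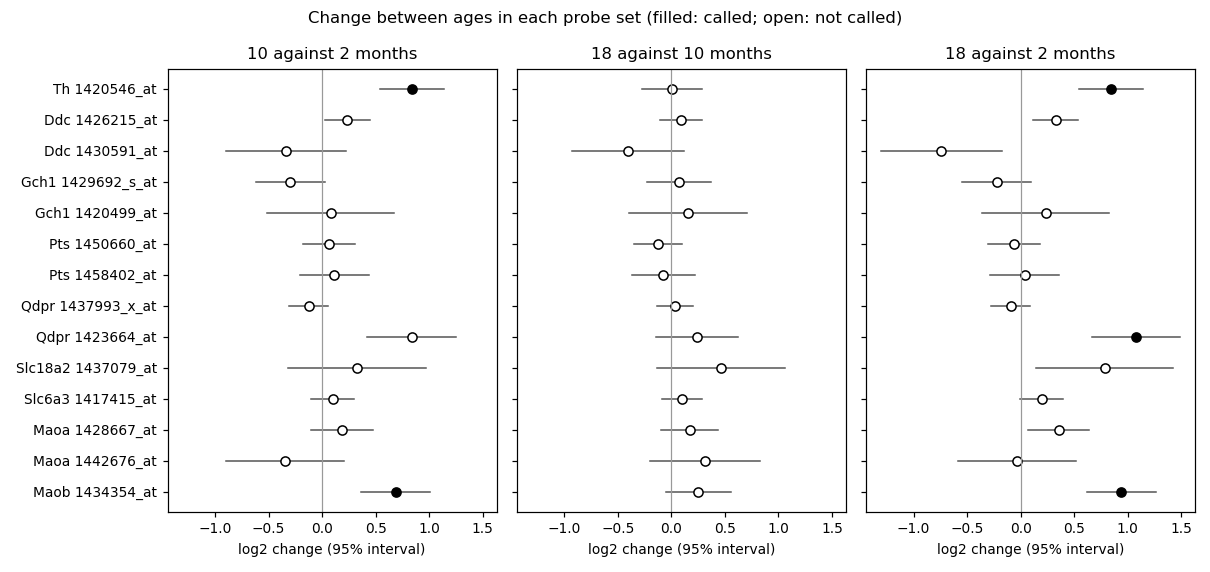
Log2 change of each of the 14 probe sets at 10 against 2, 18 against 10 and 18 against 2 months, with the 95% interval from limma as a line (n = 3, 4 and 4 samples at 2, 10 and 18 months). Filled points were called: Th, Maob and 1 probe set of Qdpr in the comparison of 18 with 2 months, Th and Maob at 10 against 2 months, and none at 18 against 10 months.

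Th is measured by the 1420546_at probe set, whose mean lay at the 99.7th percentile of all probe sets. It read 12.68, 12.99, 13.30 and 13.35 on young arrays 1 to 4. It read 14.01, 13.81, 13.78 and 13.75 on the 10-month arrays and 13.82, 13.87, 13.86 and 13.83 on the 18-month arrays. Every array of both later ages lay above every young array, and the later ages overlapped each other. The young samples were also the most scattered, with a range of 0.64, against 0.26 at 10 months and 0.04 at 18 months. The means of Th at 10 and 18 months, both 13.84, lie near the top of the scale (array maxima at or above 14.6). The part of this in the narrow later spread and in the change between 10 and 18 months was not tested. The change was 0.84 ± 0.14 (SE, adjusted p = 0.00735) at 18 against 2 months and 0.84 ± 0.14 (adjusted p = 0.0307) at 10 against 2 months, and 0.01 ± 0.13 (adjusted p = 0.992, 95% interval −0.27 to 0.29) at 18 against 10 months.

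Leaving out each array in turn, and young arrays 3 and 4 together, kept Th called at 18 against 2 months in all 13 fits, with changes of 0.68 to 1.01 and adjusted p of 0.0039 to 0.0411. The call at 10 against 2 months held in 7 of the 13 fits. It was lost without young array 1 (0.68, adjusted p = 0.176), young array 2 (0.83, adjusted p = 0.0885), 10-month array 1 (0.78, adjusted p = 0.106) or 10-month array 4 (0.87, adjusted p = 0.0843). It was also lost without 18-month array 2 or 4 (0.84 in both, adjusted p = 0.0538 and 0.0501). In a fit that also held the 3′ minus 5′ difference the change of Th was 0.47 ± 0.38 at 18 against 2 months (adjusted p = 0.99998) and 0.51 ± 0.34 at 10 against 2 months (adjusted p = 0.99994), neither called.

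The 250 bases before the start of Th are shown because Th rose in both comparisons with 2 months, and because the rodent gene is known to carry a cAMP response element near its start. The sequence is from RefSeq (build GRCm38.p6, chr7:142899996-142900245, minus strand, given 5′ to 3′ along the gene). Capitals mark matches to the motifs searched, which were TGACGTCA (the cAMP response element), TATAAA (the TATA box), GGGCGG (the core of an Sp1 site), AAAGGTCA (a monomer site of Nr4a receptors) and CAGGTG (an E-box), each on both strands.
Th: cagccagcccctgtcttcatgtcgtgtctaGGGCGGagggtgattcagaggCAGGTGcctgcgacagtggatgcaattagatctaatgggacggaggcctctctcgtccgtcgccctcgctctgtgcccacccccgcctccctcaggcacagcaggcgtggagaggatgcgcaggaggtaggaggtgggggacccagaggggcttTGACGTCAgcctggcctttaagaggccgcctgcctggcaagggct
TGACGTCA began 45 bases before the start, CAGGTG 199 bases before it and GGGCGG 220 bases before it, with no overlap among them. Of 32851 promoter windows of this length in the table, 1.55% held TGACGTCA, 17.2% held CAGGTG, 32.7% held GGGCGG, 12.4% held TATAAA and 1.34% held AAAGGTCA. A match describes the letters and is not a measured site. Of the 9 genes, 8 were found in the table with 9 windows, 2 of them for Ddc, and Maob was the other gene. TGACGTCA was found in the window of Th and in none of the other 8 windows.

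Ddc, the next enzyme, was not called, and its probe sets had estimates of opposite sign. The 1426215_at probe set read 13.74, 13.85, 13.91 and 13.90 on young arrays 1 to 4, then 14.12, 13.99, 14.16 and 14.001 at 10 months and 14.15, 14.25, 14.06 and 14.18 at 18 months. All later arrays lay above all young arrays, as they did for Th, but the steps were smaller. The change was 0.33 ± 0.10 (SE, adjusted p = 0.0603) at 18 against 2 months, with an unadjusted p of 0.00533, and 0.24 ± 0.10 (adjusted p = 0.254) at 10 against 2 months, and neither passed the test. After the arrays were centred on their medians the change of this Ddc probe set at 18 against 2 months was 0.39 ± 0.10 and was called (adjusted p = 0.0374).

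The 1430591_at probe set of Ddc lay at the 60.4th percentile of all probe sets. It read 7.64, 6.92, 7.51 and 7.39 on the young arrays, 6.81, 7.31, 6.49 and 7.39 at 10 months and 6.81, 6.94, 6.47 and 6.16 at 18 months. The ages overlapped, since young array 2 lay below 18-month array 2. Its change at 18 against 2 months was −0.74 ± 0.26 (adjusted p = 0.107), not called, although a fit with array weights called it (−0.79 ± 0.23, adjusted p = 0.0432). Within each sample, 1426215_at minus 1430591_at averaged 7.56 ± 0.33 at 18 months (SD, n = 4) and 6.49 ± 0.41 at 2 months (SD, n = 3), without overlap (exact permutation test, two-sided, p = 0.0286, which is the minimum for samples of this number, and adjusted p = 0.107 over 15 such tests of genes with 2 probe sets, a family chosen after the values were seen). The mean of both Ddc probe sets changed by −0.21 ± 0.14 at 18 against 2 months (adjusted p = 0.415).

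**Figure D2:**
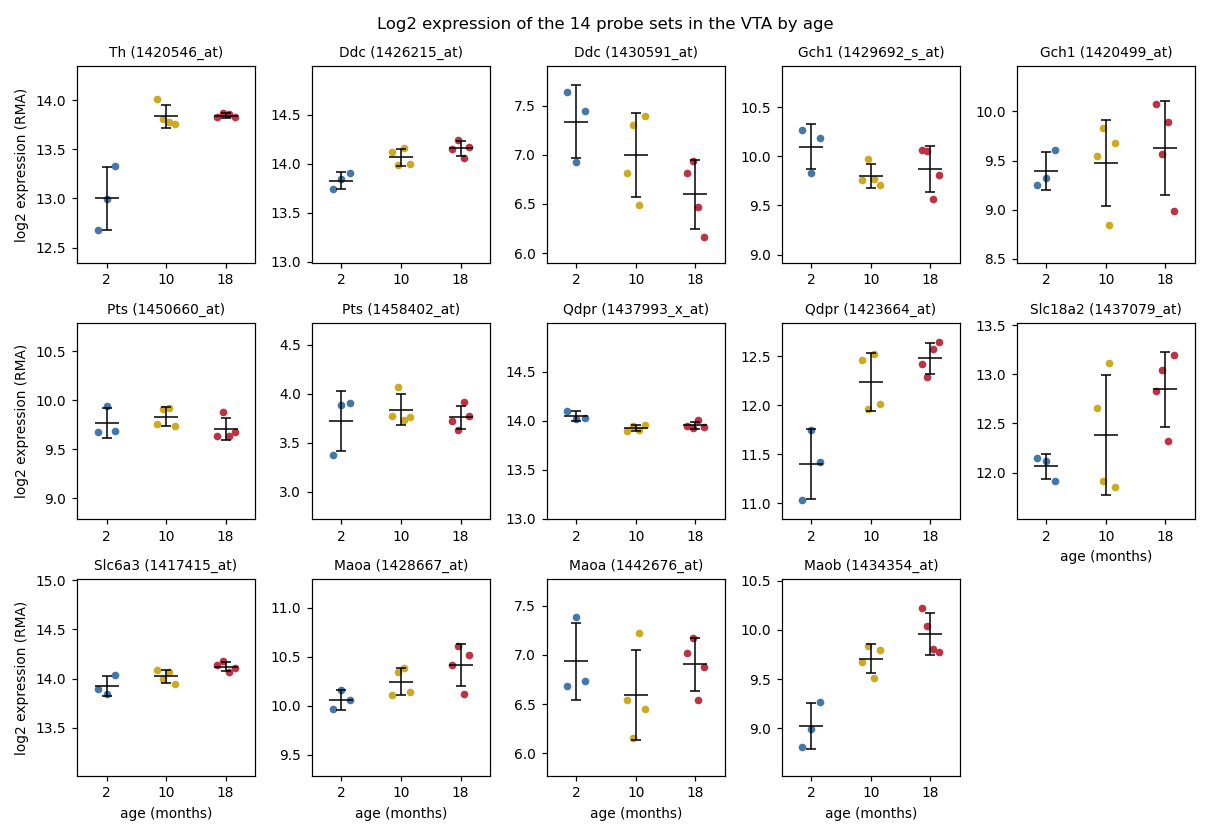
Log2 expression (RMA) of the 14 probe sets at 2, 10 and 18 months, each panel with its own axis of at least 2 log2 units. Points are samples (young arrays 3 and 4 averaged), and bars show mean and SD (n = 3, 4 and 4): Th, Maob and the 1423664_at probe set of Qdpr have all later samples above the young ones, Pts samples of all ages mix, and Slc18a2 is most spread at 10 months.

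Of the cofactor genes, Gch1 and Pts gave no call in any comparison. Gch1 encodes the rate-limiting enzyme of tetrahydrobiopterin synthesis. Its 1429692_s_at probe set, whose ending marks probes shared by several transcripts, lay between 9.84 and 10.27 on the 4 young arrays, between 9.71 and 9.98 at 10 months and between 9.57 and 10.06 at 18 months, with a change of −0.23 ± 0.15 (SE, adjusted p = 0.400, 95% interval −0.55 to 0.10) at 18 against 2 months and −0.30 ± 0.15 (adjusted p = 0.376) at 10 against 2 months. Its 1420499_at probe set spread more widely within the later ages, with values of 9.25 to 9.62 at 2 months, 8.85 to 9.83 at 10 months and 8.99 to 10.07 at 18 months, and changed by 0.23 ± 0.27 (adjusted p = 0.656, 95% interval −0.36 to 0.83) at 18 against 2 months. The Gch1 probe sets thus had estimates of opposite sign, each with an interval that holds 0.

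Pts changed by less than the SE in both of its probe sets at 18 against 2 months. The 1450660_at probe set lay between 9.60 and 9.94 at 2 months, 9.74 and 9.93 at 10 months and 9.64 and 9.88 at 18 months. Its change was −0.06 ± 0.11 (adjusted p = 0.792, 95% interval −0.30 to 0.18) at 18 against 2 months. The 1458402_at probe set of Pts lay at the 11.98th percentile of all probe sets, with values of 3.37 to 4.07 over the 12 arrays, and its change was 0.04 ± 0.15 (adjusted p = 0.908) at 18 against 2 months.

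Qdpr, the recycling enzyme, gave a different answer by probe set. The 1437993_x_at probe set, whose ending marks probes that may match other sequences, read 14.10, 14.01, 14.06 and 13.99 on young arrays 1 to 4, 13.89, 13.94, 13.90 and 13.95 at 10 months and 13.95, 13.92, 14.01 and 13.93 at 18 months. All samples of later ages lay below those of 2 months by a narrow margin, which was gone at 18 months when young array 4 was taken alone. Its change was −0.09 ± 0.08 (SE, adjusted p = 0.551, 95% interval −0.28 to 0.09) at 18 against 2 months and −0.12 ± 0.08 (adjusted p = 0.543) at 10 against 2 months.

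The 1423664_at probe set of Qdpr read 11.04, 11.74, 11.40 and 11.44 on the young arrays, 12.46, 11.96, 12.52 and 12.01 at 10 months and 12.42, 12.29, 12.57 and 12.64 at 18 months. Every later array lay above every young one, and 10-month arrays 1 and 3 stood above 10-month arrays 2 and 4. The change was 1.08 ± 0.19 (adjusted p = 0.00974) at 18 against 2 months and 0.84 ± 0.19 (adjusted p = 0.0549, not called) at 10 against 2 months. Leaving out young array 1 ended the call at 18 against 2 months (0.89 ± 0.19, adjusted p = 0.0611), while it held in the 12 other such fits. At 10 against 2 months it was called without young array 4 (0.84, adjusted p = 0.0493), without 10-month array 2 (0.93, adjusted p = 0.0498), with the 12 arrays taken separately (0.83, adjusted p = 0.0312), with array weights (0.83, adjusted p = 0.0190), and over the probe sets above the median value alone (0.84, adjusted p = 0.0453).

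Within each sample, 1437993_x_at minus 1423664_at of Qdpr averaged 2.64 ± 0.40 at 2 months (SD, n = 3), 1.68 ± 0.32 at 10 months (SD, n = 4) and 1.47 ± 0.14 at 18 months (SD, n = 4). Neither later age overlapped with 2 months (exact permutation test, two-sided, p = 0.0286 for each, adjusted p = 0.107 over the 15 tests). The gap between the Qdpr probe sets thus changed by −1.17 at 18 against 2 months and by −0.96 at 10 against 2 months. A gene value taken as the mean of both Qdpr probe sets changed by 0.49 ± 0.11 at 18 against 2 months and was called (adjusted p = 0.0255), the opposite sign to 1437993_x_at alone.

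The 250 bases before the start of Qdpr, the other gene with a called probe set and a window in the table, are shown for comparison with Th (RefSeq, build GRCm38.p6, chr5:45450230-45450479, minus strand, 5′ to 3′ along the gene, motif matches in capitals).
Qdpr: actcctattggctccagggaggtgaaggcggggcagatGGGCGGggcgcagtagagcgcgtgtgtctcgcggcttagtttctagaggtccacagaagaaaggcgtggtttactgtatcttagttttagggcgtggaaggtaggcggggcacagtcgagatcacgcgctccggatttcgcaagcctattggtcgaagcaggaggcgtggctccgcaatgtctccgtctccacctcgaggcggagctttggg
GGGCGG began 212 bases before the start and was the 1 match to the 5 motifs. It was also found in the windows of Th, Gch1, Maoa, Pts, Slc18a2 and Slc6a3, and in neither window of Ddc.

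The 3′ minus 5′ difference of the controls was lower at both later ages. Among the 10-month arrays, arrays 1 and 3, which were high in 1423664_at of Qdpr, had differences of 1.69 and 2.09, against 2.44 and 2.36 in arrays 2 and 4. Slc18a2 was also higher in 10-month arrays 1 and 3 (12.66 and 13.12) than in arrays 2 and 4 (11.91 and 11.85), as was 1426215_at of Ddc. Maob read 9.68 and 9.51 in arrays 1 and 3 and 9.84 and 9.80 in arrays 2 and 4, and Th had no such order. At 2 months Maob was lowest (8.80) on young array 1, which had the largest control difference (3.63). So were Th (12.68), 1423664_at of Qdpr (11.04) and 1426215_at of Ddc (13.74), while Slc18a2 was highest there (12.15). On young array 2, with the smallest control difference of that age (3.29), 1423664_at of Qdpr was highest (11.74), but Th and Maob were not. At 18 months array 3 had the smallest control difference (1.64). It also had the lowest Slc18a2 (12.32) and the lowest 1426215_at of Ddc (14.06) of that age, the reverse of the order at 10 months. Slc18a2 was highest on 10-month array 3 and 18-month arrays 2 and 4. These lie on the positive side of the leading principal component, as does young array 2 (12.12). These orders were seen after the fact and were not tested. With the control difference in the fit, the change of 1423664_at of Qdpr at 18 against 2 months was −0.065 ± 0.39 and that of Maob was 1.38 ± 0.40, neither called (adjusted p = 0.99998 in both). In that fit limma called none of the 45037 probe sets, and 1748 of them (3.88%), 2 of the 14 among them, had an unadjusted p under 0.05. Since no young sample overlapped with a later one in the control difference, age and this difference cannot be told apart at 2 months.

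**Figure D3:**
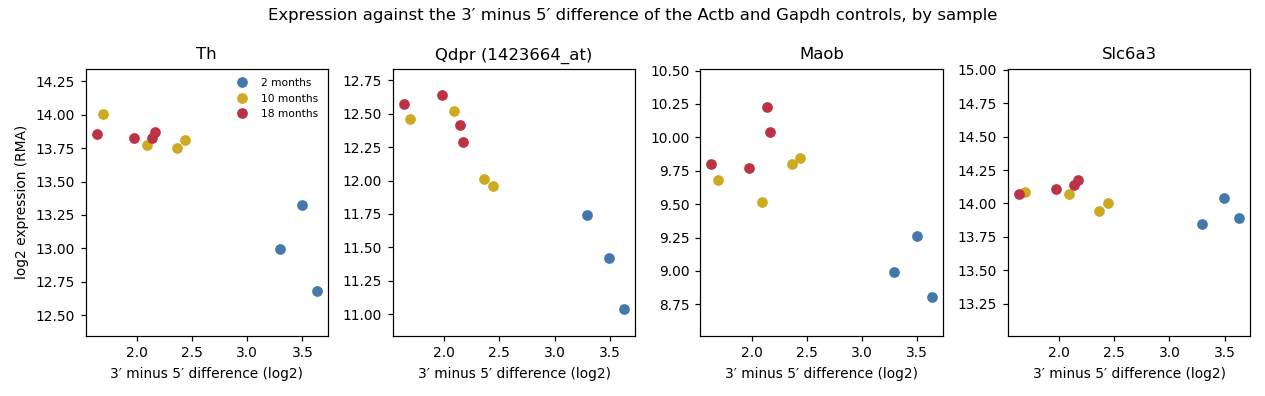
Log2 expression (RMA) of Th, the 1423664_at probe set of Qdpr, Maob and Slc6a3 against the mean 3′ minus 5′ log2 difference of the Actb and Gapdh control probe sets, 1 point per sample (n = 3 at 2 months with young arrays 3 and 4 averaged, n = 4 at 10 and at 18 months). The young samples lie at 3.29 and above and every later sample at 2.44 and below.

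Slc18a2, the vesicular transporter, varied between the arrays of one age at 10 and at 18 months and was not called. It read 12.15, 12.12, 11.93 and 11.90 on young arrays 1 to 4, 12.66, 11.91, 13.12 and 11.85 at 10 months and 12.83, 13.04, 12.32 and 13.20 at 18 months. At 10 months arrays 1 and 3 lay above all young arrays and arrays 2 and 4 among or below them, while all 18-month arrays lay above all young ones. The change was 0.78 ± 0.29 (SE, adjusted p = 0.132, 95% interval 0.14 to 1.43) at 18 against 2 months and 0.32 ± 0.29 (adjusted p = 0.683) at 10 against 2 months. The change corresponded to 1.72-fold, and its SE was the largest of the 14 probe sets. Without 10-month array 3 it was called at 18 against 2 months (0.78 ± 0.23, adjusted p = 0.0452), as it was when only those 2 ages were fitted (0.78 ± 0.20, adjusted p = 0.0438).

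Slc6a3, the plasma membrane transporter, was not called at either later age. It read 13.89, 13.84, 14.05 and 14.03 at 2 months, 14.08, 13.9995, 14.07 and 13.94 at 10 months and 14.14, 14.18, 14.07 and 14.11 at 18 months. The 18-month arrays all lay above the young ones, although 18-month array 3 lay just above young array 3. The change was 0.20 ± 0.09 (adjusted p = 0.217, 95% interval −0.00 to 0.40) at 18 against 2 months and 0.10 ± 0.09 (adjusted p = 0.684) at 10 against 2 months. The signal of Slc6a3 and of 1426215_at of Ddc lay at the 99.9th percentile of all probe sets, as did that of 1437993_x_at of Qdpr.

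In all, 6 of the 14 probe sets had every 18-month sample above every 2-month sample (Th, Slc18a2, Slc6a3, Maob, 1426215_at of Ddc and 1423664_at of Qdpr) and 1 had every one below (1437993_x_at of Qdpr). Over all probe sets tested, 10.4% were without overlap and higher at 18 months and 13.1% without overlap and lower (23.6% either way). At 10 against 2 months, 4 of the 14 were higher and 1 lower without overlap, against 6.35% and 6.25% of all probe sets (12.6% either way). At 18 against 10 months no member was without overlap, against 1.11% of all probe sets higher and 1.62% lower (2.73% either way).

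Whether Th moved further than its partners was tested on differences within each sample, in a family of 12 exact permutation tests (two-sided, none with an adjusted p under 0.05). With so few samples the smallest possible p was 0.0286. An adjusted p under 0.05 thus needed most of the 12 tests to lie at or near that floor, and the lack of one does not show equal changes. The level of a difference within a sample depends on the probes, so that only its change between ages was compared. Th minus Ddc (1426215_at) averaged −0.83 ± 0.24 at 2 months (SD, n = 3), −0.23 ± 0.12 at 10 months (SD, n = 4) and −0.31 ± 0.08 at 18 months (SD, n = 4). Th minus Slc6a3 averaged −0.92 ± 0.26 at 2 months, −0.19 ± 0.09 at 10 months and −0.28 ± 0.05 at 18 months (SD, same samples). In both pairs all later samples lay above all young ones, with an exact p of 0.0286 and an adjusted p of 0.0857 for each later age. The change of Th minus that of Ddc was 0.52 at 18 against 2 months and 0.60 at 10 against 2 months, and the change of Th minus that of Slc6a3 was 0.65 and 0.74 in the same comparisons. Slc6a3, 1426215_at of Ddc and 1437993_x_at of Qdpr, at means of 14.03, 14.04 and 13.97, lie near the top of the scale (array maxima at or above 14.6), as do the later means of Th. The part of this in these differences and in the gap between the Qdpr probe sets was not tested.

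Th minus Slc18a2 overlapped between the ages. It averaged 0.94 ± 0.44 at 2 months, 1.45 ± 0.59 at 10 months and 0.998 ± 0.39 at 18 months (SD, same samples). The mean at 18 months was 0.06 above that at 2 months (exact permutation p = 0.83, adjusted p = 0.83), and the mean at 10 months was 0.52 above it (exact permutation p = 0.286, adjusted p = 0.377).

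**Figure D4:**
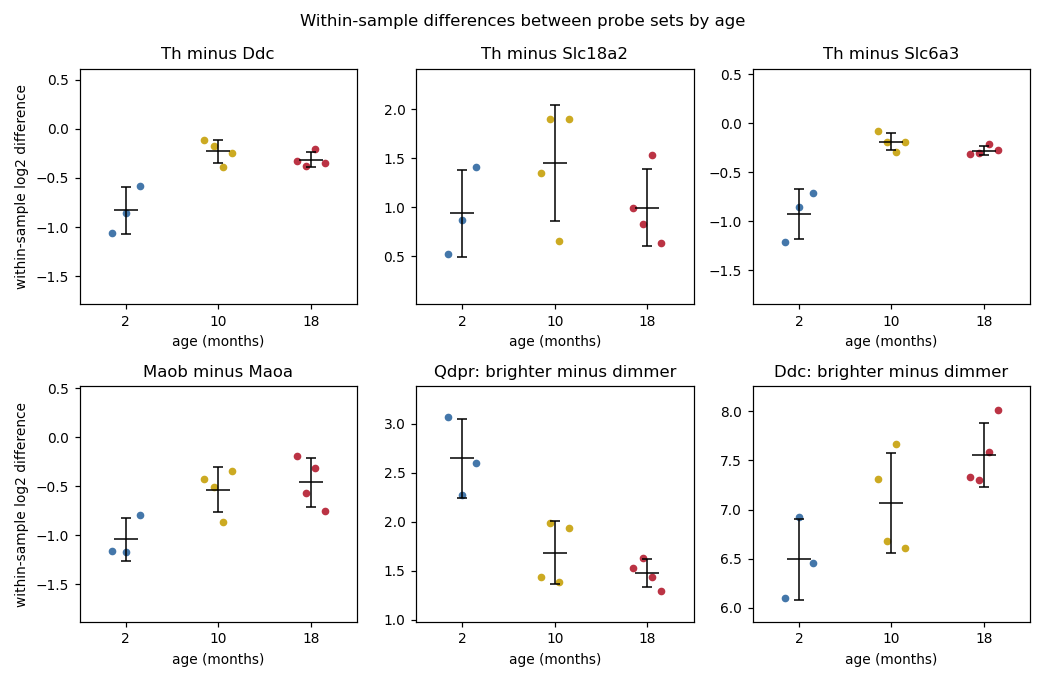
Differences in log2 expression within each sample, at 2, 10 and 18 months, for Th minus Ddc, Th minus Slc18a2, Th minus Slc6a3, Maob minus Maoa, and for the probe set with the higher mean minus the other in Qdpr and in Ddc. Points are samples and bars show mean and SD (n = 3, 4 and 4): Th minus Ddc and Th minus Slc6a3 are higher in every later sample than in every young one, and Th minus Slc18a2 overlaps.

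Of the breakdown enzymes, Maob rose. Maoa and Maob are neighbouring genes on the X chromosome, and in the rodent brain Maob is found mainly in astrocytes and serotonergic neurons. Maob (1434354_at) read 8.80, 8.99, 9.21 and 9.32 on young arrays 1 to 4, 9.68, 9.84, 9.51 and 9.80 at 10 months and 10.23, 10.04, 9.80 and 9.77 at 18 months. Every later array lay above every young one, and the later ages overlapped. The change was 0.94 ± 0.15 (SE, adjusted p = 0.00656) at 18 against 2 months, 0.69 ± 0.15 (adjusted p = 0.0492) at 10 against 2 months and 0.25 ± 0.14 (adjusted p = 0.847) at 18 against 10 months.

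Leaving out arrays kept the Maob call at 18 against 2 months in all 13 fits, with changes of 0.83 to 1.06 and adjusted p of 0.00397 to 0.0463. The Maob call at 10 against 2 months, close to the threshold, held in 3 of the 13. It was lost without young array 1 (0.58, adjusted p = 0.291), 2 (0.67, adjusted p = 0.134) or 3 (0.67, adjusted p = 0.0600) and without 10-month array 1 (0.70, adjusted p = 0.144), 2 (0.64, adjusted p = 0.0734) or 4 (0.66, adjusted p = 0.125). Without 18-month array 1, 2, 3 or 4 the Maob change stayed at 0.69 and the adjusted p was 0.0568, 0.0752, 0.0694 and 0.0660.

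Maoa was not called. Its 1428667_at probe set read 9.97, 10.16, 10.07 and 10.04 at 2 months, 10.11, 10.35, 10.38 and 10.15 at 10 months and 10.42, 10.61, 10.12 and 10.52 at 18 months. At 18 months arrays 1, 2 and 4 lay above all young arrays, while array 3 lay below young array 2. The change was 0.36 ± 0.13 (SE, adjusted p = 0.125, 95% interval 0.07 to 0.64) at 18 against 2 months and 0.18 ± 0.13 (adjusted p = 0.571) at 10 against 2 months. The 1442676_at probe set of Maoa lay between 6.68 and 7.39 at 2 months, 6.15 and 7.23 at 10 months and 6.54 and 7.17 at 18 months, with a change of −0.03 ± 0.25 (adjusted p = 0.956, 95% interval −0.59 to 0.52) at 18 against 2 months.

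Maob minus Maoa (1428667_at) averaged −1.04 ± 0.22 at 2 months (SD, n = 3), −0.54 ± 0.23 at 10 months (SD, n = 4) and −0.46 ± 0.25 at 18 months (SD, n = 4). At 18 months it was 0.58 above 2 months without overlap (exact permutation p = 0.0571, adjusted p = 0.137 over the 12 tests), and at 10 months 0.50 above 2 months with overlap (exact permutation p = 0.0857, adjusted p = 0.147). The larger change of Maob than of Maoa did not pass this exact permutation test, in which the smallest possible p was 0.0286.

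Markers of other cell types were read beside Maob, each at its probe set of highest mean. The 7 astrocyte markers, all measured and none called in any probe set, had a mean level of 11.11 to 11.22 in the samples of 2 months, 11.17 to 11.41 at 10 months and 11.31 to 11.59 at 18 months, with no overlap of 18 and 2 months. The 3 measured of 4 serotonergic markers had a mean level of 6.87 to 8.35 at 2 months, 5.90 to 7.51 at 10 months and 6.37 to 7.91 at 18 months, with none called. Among the serotonergic markers Tph2, which makes serotonin's precursor, had means of 7.97, 6.11 and 7.53 at 2, 10 and 18 months with SDs of 1.58, 1.496 and 0.98. The 6 measured of 7 oligodendrocyte markers stood at 12.30 to 12.39 at 18 months, against 12.30 to 12.37 at 2 months, and none was called at that probe set, although 1 of the 3 probe sets of Cnp was called higher. The 5 microglial markers had a mean level of 8.90 to 9.13 at 18 months and 8.49 to 8.66 at 2 months, and 2 of them, P2ry12 and Tmem119, rose, while 1 of the 3 probe sets of Csf1r, not that of highest mean, was called higher. The 3 measured of 4 noradrenergic markers had a mean level of 6.11 to 6.32 at 18 months, below the 6.44 to 6.54 at 2 months. The 3 choroid plexus markers, 2 of them below the lower quartile of all values, stood at 4.55 to 5.04, below 5.17 to 6.11. None of these 2 lists was called. The GABAergic, glutamatergic, endothelial and blood lists overlapped between 18 and 2 months. The part of these cells in the values of the 9 genes was not tested.

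**Figure D5:**
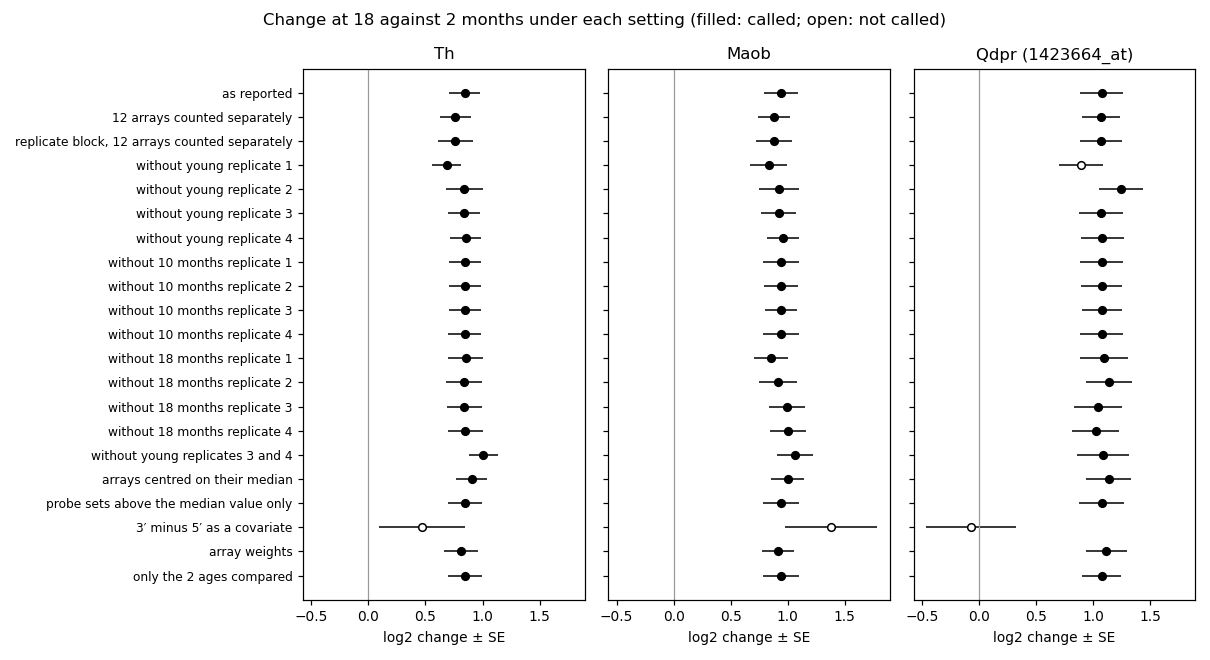
Log2 change ± SE at 18 against 2 months of Th, Maob and the 1423664_at probe set of Qdpr as reported and under 20 other settings, with filled points where the probe set was called. Th and Maob are open under the 3′ minus 5′ covariate alone, and the Qdpr probe set is open there, where its estimate is −0.065, and without young replicate 1.

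Other genes of the pathway were read from a list of 24, of which 18 had a probe set of their own (38 probe sets) and the other 6 were not analysed here. With each gene at its probe set of highest mean, none of the 18 was called in any of the 3 comparisons. The changes at 18 against 2 months ran from −0.76 in Slc29a4, a low-affinity monoamine transporter (adjusted p = 0.113), to 0.53 in Slc3a2, the heavy chain of the large neutral amino acid transporter (adjusted p = 0.0761), with a median of −0.21, against −0.06 over all probe sets. The Slc29a4 value is that of 1441902_x_at, whose ending marks probes that may match other sequences. The other Slc29a4 probe set, 1424900_at, had an estimate of opposite sign (0.26 ± 0.16, adjusted p = 0.373). Over all 38 probe sets, 2 were called higher and none lower at 18 against 2 months, against 4.55% and 2.91% of all probe sets tested. Both were of Akr1a1, an aldehyde reductase. They were 1435011_x_at (0.46 ± 0.13, adjusted p = 0.0487) and 1451035_a_at (0.47 ± 0.13, adjusted p = 0.0475). The 1430124_x_at probe set of Akr1a1 changed by 0.48 ± 0.14 and was not called (adjusted p = 0.0557). The Akr1a1 probe set of highest mean, 1430123_a_at, had a change of 0.02 ± 0.09 (adjusted p = 0.940), at a mean of 13.81, near the top of the scale. Aldh1a1, which oxidises the aldehyde formed from dopamine, averaged 14.01 ± 0.06 at 18 months (SD, n = 4) and 13.81 ± 0.10 at 2 months (SD, n = 3) (change 0.21 ± 0.09, adjusted p = 0.198). The 5 probe sets of Aldh2, another aldehyde dehydrogenase, had estimates of −1.08 to −0.32 at 18 against 2 months, 4 of them with an unadjusted p under 0.05 and the lowest adjusted p at 0.0810 (1434987_at), and none was called. Aldh9a1 (1436689_a_at) had a change of −0.40 ± 0.15 (adjusted p = 0.126).

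The genes with the most similar profile to Th and to Slc6a3 were found among 12223 other genes by the root mean square difference over the 11 samples after each profile was centred on its mean. Nearest to Th were Aldh7a1 (0.0848), Copg1 (0.0950), Kat8 (0.0982), Mpi (0.0985) and 4933434E20Rik (0.104), against an SD of 0.42 of Th itself over the samples. Each of these 5 genes had a change of 0.67 to 0.89 at 18 against 2 months, and each was called. Nearest to Slc6a3 were Aldh1a1 (0.0402), Cdc42se1 (0.0596), Nup85 (0.0601), Prtg (0.0617) and Canx (0.0648), against an SD of 0.10 of Slc6a3, and none of them was called. The genes were picked for closeness to Th or Slc6a3 in these same samples, so their changes and calls follow from that choice and add no separate result. The distance is on the log2 scale and shrinks with the spread of a profile, and it describes these samples alone.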

How the data were processed

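Pooled RNA of the VTA was hybridised to Affymetrix mouse arrays. The authors deposited log2 expression values per probe set, made with RMA. Their processing notes list limma 3.4.5 as well. Probe sets were named through the array's annotation (34945 with 1 gene, 932 with several, 9160 with none). The 64 control probe sets were not tested, which left 45037. One model with a mean for each age was fitted in limma 3.58.1 (R 4.3.3), and probe sets were called at an adjusted p under 0.05 and a change above 1.3-fold, the study's thresholds. Errors of changes are standard errors. Differences within samples were tested with scipy 1.17.1. On simulated data for 18 against 2 months, in 45037 probe sets with 200 changed, 0% were recovered at a log2 change of 0.5, 68.5% at 1 and 94.5% at 2. The data held 3359 called probe sets in that comparison, so the adjustment was stricter in the simulation than in the data. Changes under 0.5 were called in the data, such as 0.46 for 1435011_x_at of Akr1a1. These shares therefore do not give the detection limit of the data. All probe sets of the 9 genes are named. From the pathway list the called genes, and others chosen after their values were seen, are named. The members and lists were chosen with earlier results of these data known. Same-numbered arrays did not deviate together (12 correlations of −0.61 to 0.43, 4 over 0.1), so numbers were not taken as pairs. Alternatives were 12 separate arrays, a replicate block, leaving out arrays, median centring, an expression filter, the 3′ minus 5′ covariate, array weights, fits of 2 ages and gene means. The tests between probe sets of one gene were added after the values were seen.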

Additional observations from a re-analysis of the deposited data

Results flagged for a closer look

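Of 28 groups of 4 samples tested, 1 held a sample far from the others: 10-month array 2 read 4.07 for 1458402_at of Pts, and the nearest other array of that age read 3.77. Chance alone marks about 1 in 20 such groups, and the probe set lay at the 11.98th percentile of all probe sets.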

How the results depend on the processing

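Over 20 alternative settings, 837 values of the 42 changes of the 14 probe sets were recomputed; 802 stayed on the same side of the thresholds, 25 lost a call, 9 gained one and 1 called change turned sign, while 30 further sign changes concerned changes not called either way and are not counted as reversals. The value that turned sign was −0.065 for 1423664_at of Qdpr at 18 against 2 months with the 3′ minus 5′ covariate; the cause was not tested. Apart from these settings, the mean of both Qdpr probe sets changed by 0.49 and was called, the opposite sign to 1437993_x_at, which was not called, and the same sign as 1423664_at. With the covariate, 0 probe sets were called at 18 against 2, 10 against 2 and 18 against 10 months (1748, 1919 and 1536 with an unadjusted p under 0.05, or 3.88%, 4.26% and 3.41%), and 0 members. With 12 separate arrays, 977 were called at 10 against 2 months (main 613) and 2 in the contrast of unequal intervals (main 0). The replicate block, on 12 arrays, gave 3 calls at 10 against 2 months, 0 at 18 against 10 months and 0 members at 10 against 2 months (Th adjusted p = 0.0796, Maob 0.118), and changed no other count by over 1.5 times. Array weights gave 5339 calls at 18 against 2 months and 2944 at 10 against 2 months. Fitting only 2 ages, with fewer samples, gave 0 at 10 against 2 months (6288 unadjusted), 0 at 18 against 10 months and 0 members at 10 against 2 months. The filter above the median gave 0 at 18 against 10 months. Median centring gave 2540 higher and 926 lower at 18 against 2 months, against 2047 and 1312 as reported, and called 4 members. Leaving out arrays gave 423 to 5326 calls at 18 against 2 months (423 without young array 1, 5326 without 10-month array 3), 1 to 1256 at 10 against 2 months (1276 without young arrays 3 and 4 together), 0 to 2 at 18 against 10 months, and 2 to 4 members at 18 against 2 months and 0 to 3 at 10 against 2 months. Without 10-month array 3 the calls at 10 against 2 months were 629 higher and 627 lower, against 377 and 236. The filter left out 1458402_at of Pts, whose signal is low.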
